A study of Homo sapiens with 24 samples.

Results

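Of 43291 probes on arrays of 3 human neuroblastoma cell lines, 111 had a ratio of FOXP1-expressing over GFP-expressing cells that pointed in opposite directions in IMR-32 and CHP-212. They were chosen by the measured ratios themselves: on the authors' normalized values, the log2 ratio was at least 0.8 at all 4 time points in one line and at most -0.8 at all 4 in the other, and the probe had to exceed background clearly (the scanner's flag for well above background) on 4 or more of the 8 arrays in each of these lines. In 34 members the FOXP1 culture had the higher level in IMR-32 and the lower level in CHP-212, and in 77 members the reverse held. The ratios in these lines are therefore a description, and the calls of the fit there are counted without being read as a test, while SK-N-BE(2), whose arrays took no part in the choice, was tested.

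SK-N-BE(2), like IMR-32 and CHP-212, is an established cell line grown from neuroblastoma, a childhood tumor of the sympathetic nervous system. Each line was made into a polyclonal culture that carried FOXP1 and a polyclonal culture that carried GFP under a doxycycline-controlled promoter (RevTet-On), and RNA was taken at 0 h, before doxycycline, and at 12, 24 and 72 h with it. Each of the 6 slides held 4 arrays of 1 line, with either the first or the last pair of time points. This gave 24 one-colour arrays in 6 groups of 4, named by line and transgene. The study reports that the promoter leaks. As the time points of a group come from 1 culture, they are not independent replicates, so that the p-values measure the spread between these time points and not between separately made cultures.

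FOXP1 is a forkhead transcription factor that acts largely as a repressor and takes part in the development of lymphocytes, heart, lung and motor neurons. Neuroblastoma cells in culture lie between an adrenergic state, with the enzymes of noradrenaline synthesis and sympathetic transcription factors, and a mesenchymal state with genes of matrix and migration. The probes are named by the array design, and gene symbols were available for 3504 probes, all from the study's list of regulated genes. Of that list, 373 entries for IMR-32 and 213 for SK-N-BE(2) were not available, so a member or marker gene without a symbol here may still be on it. Of the 111 members, 45 had a symbol, each a different gene (10 of the 34 and 35 of the 77). The other 66 are known here by probe ID only.

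The FOXP1 probe (UKv4_A_23_P155257) was checked first, as the log2 of its processed signal minus that of the array's 75th percentile, a scale called the log2 level here, with values in the order 0, 12, 24 and 72 h. In IMR-32 its level was 2.60, 2.76, 2.66 and 2.38 in FOXP1 cells and 1.05, 1.19, 1.39 and 1.18 in GFP cells, and in CHP-212 it was 2.81, 3.28, 3.00 and 2.94 against 0.77, 1.20, 1.08 and 1.05. The FOXP1 culture was the higher at every time point in these lines, with no overlap. On the arrays labelled FOXP1 of SK-N-BE(2) the level was 2.97, 2.84, 2.63 and 2.73, and on the GFP arrays 3.00, 3.30, 2.87 and 2.81. The probe was not higher there at any time point, and the fitted difference was -0.20 (standard error 0.16, adjusted p = 0.911, limma). Directions in SK-N-BE(2) therefore follow the labels of the arrays and not an excess of FOXP1 RNA at this probe. The study reports inducible FoxP1 protein in its FOXP1 lines by Western blot, and protein was not measured on these arrays.

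Of the adrenergic marker genes, 5 of 12 had a named probe. STMN2, TH and GAP43 were well above background on all 8 arrays of each line, and DBH and CHGB on all 8 in IMR-32 and SK-N-BE(2) and on 5 and 4 of 8 in CHP-212. Of mesenchymal markers, 1 of 12 had a named probe, PRRX1, which exceeded background clearly on 0 of the 24 arrays. None of the 5 Schwann-like markers had a named probe (0 of 5). In IMR-32, FOXP1 cells had 4 of the 5 adrenergic genes called higher and 0 lower (limma, with 5 and 0 at an unadjusted p under 0.05), where 6.34 and 5.86% of all probes tested were, with a median log2 difference of 2.82 against -0.01 over all probes tested. CHP-212 had 2 called higher and 0 lower (3 and 0 unadjusted), where 1.93 and 1.08% of all probes were, with a median of 0.50 against 0.017. For SK-N-BE(2) the counts were 0 and 0 (limma, with 2 and 0 unadjusted), where 0.426 and 0.285% of all probes were called. The median was -0.069 against -0.01. The t-test of the study's methods, run here on the log2 levels, also gave 0 and 0. As a probe has a name here only if the study listed it as regulated on these same arrays, the 5 genes were in effect chosen for a difference, and nothing is read from their counts or medians beside those of all probes. The part of these differences in the opposite ratios was not tested. In bulk RNA, fewer cells of a type and less RNA per cell cannot be told apart.

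The arrays did not measure the members equally well. On the CHP-212 slide of the first 2 time points fewer probes exceeded background than elsewhere, at most 60.4% of all probes against at least 72.8% on every array of the other slides. Of the members, 64 of 111 were well above background on both CHP-212 arrays of 0 h and 64 on both of 12 h, but 107 at 24 h and 107 at 72 h. In 13 members at 0 h and 11 at 12 h neither array reached that limit, and the ratio there rests on signals near background. On all 8 arrays of the line, 57 members were well above background in CHP-212 and 76 in IMR-32, and 43 members (9 of the 34 and 34 of the 77) were so on all arrays of both lines.

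In the class with higher FOXP1 levels in IMR-32, the median log2 ratio at the 4 time points was 2.12, 1.52, 1.85 and 2.00 in IMR-32 and -2.18, -1.79, -1.46 and -1.21 in CHP-212. In the other class it was -2.16, -2.33, -2.68 and -2.42 in IMR-32 and 2.48, 1.93, 2.12 and 1.93 in CHP-212. The opposite ratios were thus present at 0 h, without doxycycline, as the choice required. Over the 31452 probes that met the same limit on dim signals, the median of the mean ratio was -0.01 in IMR-32 and -0.02 in CHP-212. Mean ratios of the members ran from 0.98 to 8.88 in IMR-32 and from -4.05 to -1.0 in CHP-212 in the class of 34, and from -5.83 to -1.13 and from 0.94 to 4.86 in the class of 77.

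Set beside all probes with a ratio beyond the same limit at all 4 time points of a line, the members were the smaller part. The class of 34 made up 2.34% of the 1454 probes higher in IMR-32 and 11.3% of the 301 lower in CHP-212. The class of 77 made up 5.88% of the 1309 lower in IMR-32 and 15.4% of the 500 higher in CHP-212. Probes that moved alike numbered 151, of which 88 were higher and 63 lower in both lines.

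A limma fit set 4 FOXP1 against 4 GFP arrays, and a probe that changed at least 2-fold with an adjusted p under 0.05 was called. The class of 34 was called higher in IMR-32 in 34 of 34 members, where 6.34% of all probes tested were called higher, and lower in CHP-212 in 21 of 34, where 1.08% were called lower. The class of 77 was called lower in IMR-32 in 77 of 77 members, where the share of all probes was 5.86%, and higher in CHP-212 in 69 of 77, where it was 1.93%. These contrasts were used to choose the members, so nothing is read from the counts. In CHP-212, 13 and 8 members were not called although all 4 of their ratios passed the limit. VSNL1, C10orf30, RET, SP5 and TNFRSF14, described below, were among them.

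Near the limit, the member with the smallest ratio in the class of 34 was the probe UKv4_A_24_P64241, whose least ratio was 0.81 (IMR-32 at 24 h), followed by SESN3, a stress-induced sestrin that restrains growth signalling, at -0.82 (CHP-212 at 72 h). Just outside lay UKv4_A_32_P224449, with 0.79 in IMR-32 at 72 h, and UKv4_A_23_P123596, with -0.77 in CHP-212 at 0 h. In the class of 77, the probes UKv4_A_23_P31896 and UKv4_A_32_P109203 were just inside, with 0.80 and 0.81 in CHP-212 at 72 h. PPP1R1C, an inhibitor of a protein phosphatase, and PALMD were just outside, each with -0.79 in IMR-32 at 12 h. Between 0.7 and 0.8 lay 16 and 23 further probes, so that the limit does not mark a gap.

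The members of each class with a symbol are described by what their products do. The 8 of each class with the largest smallest ratio were named by a rule, and the remaining genes with a symbol were added after their values were seen. The rule took the ratios as measured, also where the dimmer culture was at background level, so that it orders no differences by size. In the class of 34, HOOK1, an adaptor that links vesicles to microtubules, had a log2 level in IMR-32 of -1.79, -1.98, -1.42 and -1.08 in FOXP1 cells and -5.85, -5.66, -4.79 and -4.45 in GFP cells. In CHP-212 it was -5.65, -4.11, -7.68 and -7.73 in FOXP1 cells, where no array was well above background, and -2.19, -2.01, -2.62 and -2.13 in GFP cells. The groups did not overlap in either line, and against the lowest signal well above background GFP cells of CHP-212 had an at least 8.18-fold higher level. PDLIM1, a cytoskeletal protein that binds actin-associated proteins, had mean log2 ratios of 1.55 in IMR-32 and -1.42 in CHP-212.

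KCNJ8, a pore subunit of an ATP-sensitive potassium channel, was at 1.57, 1.62, 1.80 and 2.20 in FOXP1 cells and at 0.18, 0.37, 0.31 and 0.25 in GFP cells of IMR-32. In CHP-212 the levels were -5.81, -6.04, -6.18 and -5.94 against -4.16, -4.11, -3.63 and -3.17, with 2 of the 4 FOXP1 arrays well above background. The SK-N-BE(2) levels of KCNJ8, 2.69, 2.98, 3.04 and 2.72 and 3.13, 3.51, 3.66 and 3.34, lay above those of every array of the other lines. VSNL1, a neuronal calcium sensor, had mean ratios of 1.54 in IMR-32 and -2.37 in CHP-212 (2 of 4 FOXP1 arrays of CHP-212 well above background), with a CHP-212 ratio of -4.58 at 0 h, and CDH10, a cadherin of neural tissue, had 1.62 in IMR-32 and -1.67 in CHP-212.

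PARP8, a member of the ADP-ribosyltransferase family, was at -0.87, -1.24, -0.55 and -0.84 in FOXP1 cells and -4.40, -4.32, -3.48 and -4.00 in GFP cells of IMR-32, and at -3.53, -3.08, -2.58 and -2.24 and -1.30, -1.38, -0.93 and -0.99 in CHP-212. All 16 of these arrays were well above background and the groups did not overlap, while none of the 8 SK-N-BE(2) arrays was. SP5, a zinc finger transcription factor that is induced by Wnt signalling, was at 3.24, 3.64, 3.48 and 3.21 against -6.03, -5.37, -5.54 and -5.03 in IMR-32, the widest measured gap of all members. In CHP-212 SP5 was at -6.03, -6.05, -5.93 and -6.31 in FOXP1 and -5.98, -5.62, -4.78 and -4.93 in GFP cells. Only the arrays of 24 and 72 h were well above background. Its ratios on the authors' normalized values were -2.09, -1.98, -1.20 and -1.43. On the log2 levels the cultures differed by less than the limit of 0.8 at 0 and 12 h. The fitted difference there was -0.75 and was not called (adjusted p = 0.182, limma). C10orf30, now named BEND7 and of unclear function, had a ratio of 5.71 in IMR-32 on average, and in CHP-212 ratios of -5.38, -1.46, -1.15 and -1.12, with 2 of 4 FOXP1 arrays, those of 24 and 72 h, well above background.

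RET, the receptor tyrosine kinase for ligands of the GDNF family, is also 1 of 8 genes that the study named from these arrays. The 8 are HOXC9 and genes of neuronal differentiation. The study states that FOXP1 strongly raised them in IMR-32 and CHP-212. RET was lower in FOXP1 cells of CHP-212 here, with a fitted log2 difference of -1.01 that was not called (adjusted p = 0.0701, limma). Among the others, NPY had -0.77 in IMR-32 and MAP2 -0.45 in CHP-212, neither of them called. DNER exceeded background clearly on 0 arrays of IMR-32. RET was at -0.67, -0.49, -1.16 and 0.33 in FOXP1 cells and -4.34, -3.41, -3.0 and -3.13 in GFP cells of IMR-32. In CHP-212 RET was at 2.48, 2.09, 2.96 and 2.81 in FOXP1 cells and 3.24, 3.28, 4.05 and 3.81 in GFP cells. Every array was well above background. GFP cells of IMR-32 had the least RET and GFP cells of CHP-212 the most of these 4 cultures, with FOXP1 cells in between. The study picked these 8 genes on the same arrays, so they are no independent evidence of a direction. IMR-32 had 5 of 7 tested called higher and 0 lower (limma, 6 and 1 at an unadjusted p under 0.05), beside 6.34 and 5.86% of all probes, with a median log2 difference of 2.97 against -0.01. For CHP-212 it was 3 of 8 and 0 (5 and 1 unadjusted), beside 1.93 and 1.08%, with a median of 1.44 against 0.017. For SK-N-BE(2) it was 0 of 7 and 0 (2 and 2 unadjusted), beside 0.426 and 0.285%, with a median of -0.01 against -0.01. The t-test of the study's methods, run here on the log2 levels, gave 0 and 0 there. The study's own list of regulated genes for SK-N-BE(2) holds RET. RET was the only one of the 8 among the 111 members.

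Among members without a symbol, UKv4_A_23_P114879 and UKv4_A_24_P101800 were named by the same rule. For the first, the log2 ratios were 4.54, 3.64, 3.22 and 2.82 in IMR-32 and -4.30, -4.54, -3.61 and -3.33 in CHP-212. In each line the dimmer culture was at background level on all 4 arrays, and the bounds were at least 7.06-fold higher in FOXP1 cells of IMR-32 and at least 2.38-fold higher in GFP cells of CHP-212. The second had ratios of 3.65, 2.96, 2.73 and 2.61 and -2.33, -2.80, -1.94 and -2.09, with a bound of at least 3.82-fold in IMR-32 and 3 of 4 FOXP1 arrays of CHP-212 well above background.

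In the class of 77, secreted proteins and matrix genes are described first. IGFBP7, a secreted protein that binds insulin-like growth factors and is laid down in matrix, had a level in IMR-32 of -9.09, -9.13, -8.29 and -9.04 in FOXP1 cells, none of them well above background, and -3.18, -2.67, -2.51 and -1.89 in GFP cells. In CHP-212 it was -0.17, -0.37, -0.51 and -0.51 in FOXP1 cells and -5.51, -5.32, -4.99 and -5.13 in GFP cells, of which 2 of 4 arrays were well above background. GFP cells of IMR-32 had an at least 17.4-fold higher level than FOXP1 cells.

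DKK1, a secreted inhibitor of Wnt signalling, was at -6.52, -7.26, -8.26 and -7.54 in FOXP1 and -1.11, -0.89, -1.21 and -1.71 in GFP cells of IMR-32, with 1 of 4 FOXP1 arrays well above background. In CHP-212 it was at 3.01, 2.76, 2.71 and 3.26 against 0.36, -0.16, -1.26 and -0.82 on arrays that were all well above background. The levels of DKK1 in both SK-N-BE(2) cultures, 3.13, 3.24, 3.45 and 2.54 and 2.38, 2.42, 2.76 and 2.02, lay nearer to FOXP1 than to GFP cells of CHP-212. CXCL12, a chemokine that guides cells through the receptor CXCR4, was at -1.50, -1.50, -1.84 and -1.22 and 1.33, 1.51, 1.44 and 1.59 in FOXP1 and GFP cells of IMR-32 and at 2.96, 2.32, 2.76 and 2.53 and 0.95, 0.70, 0.26 and 0.23 in CHP-212, again with every array well above background and no overlap.

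Mean ratios describe other genes of secreted, matrix and cell-surface proteins. JAG1, a membrane-bound Notch ligand, had mean ratios of -2.75 in IMR-32 and 1.65 in CHP-212, and SLIT2, a repulsive guidance cue for axons, -1.42 in IMR-32 and 1.04 in CHP-212. STC2, a secreted glycoprotein, had -3.52 in IMR-32 and 1.93 in CHP-212 (2 of 4 FOXP1 arrays of IMR-32 well above background), and FAM19A2 (now TAFA2), a small secreted protein of the brain, -2.76 in IMR-32 and 2.48 in CHP-212 (1 of 4 FOXP1 arrays of IMR-32 and 3 of 4 GFP arrays of CHP-212 well above background). THBS4, a matrix thrombospondin, had -2.56 in IMR-32 and 3.33 in CHP-212, and SPON2, a matrix protein of the spondin family, -2.59 in IMR-32 and 1.93 in CHP-212. LTBP1, which holds latent TGF-beta in the matrix, had -1.79 in IMR-32 and 3.24 in CHP-212 (3 of 4 GFP arrays of CHP-212 well above background). FRAS1, a protein of basement membranes, had -3.14 in IMR-32 and 1.80 in CHP-212, and GPC6, a glypican of the cell surface, -1.61 in IMR-32 and 1.20 in CHP-212.

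Receptors and other proteins of membranes or signalling are described next. SSTR2, a somatostatin receptor, had ratios of -2.16, -2.36, -2.49 and -1.50 in IMR-32 and 4.22, 4.21, 4.91 and 4.91 in CHP-212. VIPR1, a receptor for vasoactive intestinal peptide, had -2.37, -1.97, -3.27 and -3.03 and 2.74, 2.23, 2.30 and 2.25. FOXP1 cells of IMR-32 were not well above background for VIPR1 on any array, so that GFP cells were at least 5.64-fold higher. BDKRB1, a bradykinin receptor, had mean ratios of -2.52 in IMR-32 and 2.99 in CHP-212 (0 of 4 FOXP1 arrays of IMR-32 well above background) with a bound of at least 3.48-fold in IMR-32, and AGTR1, an angiotensin II receptor, -1.43 in IMR-32 and 2.00 in CHP-212 (0 of 4 FOXP1 arrays of IMR-32, 3 of 4 FOXP1 arrays of CHP-212 and 2 of 4 GFP arrays of CHP-212 well above background) with a bound of at least 2.24-fold. TNFRSF14, a receptor of the TNF receptor family, had -2.10 in IMR-32 and 2.86 in CHP-212 (3 of 4 FOXP1 arrays of IMR-32 and 3 of 4 GFP arrays of CHP-212 well above background), with 1.24 at 0 h and 4.31 at 12 h in CHP-212. TPBG, a membrane glycoprotein of trophoblast and tumor cells, had -4.06 in IMR-32 and 1.91 in CHP-212 (2 of 4 FOXP1 arrays of IMR-32 well above background). CNIH3, an auxiliary protein of AMPA-type glutamate receptors, had -2.07 in IMR-32 and 2.67 in CHP-212 (3 of 4 FOXP1 arrays of IMR-32 well above background). C18orf1 (now LDLRAD4), a membrane protein that dampens TGF-beta signalling, had -2.05 in IMR-32 and 2.07 in CHP-212 (2 of 4 GFP arrays of CHP-212 well above background), and DOK7, an adaptor of the muscle kinase MuSK, -5.04 in IMR-32 and 1.87 in CHP-212 (1 of 4 FOXP1 arrays of IMR-32 well above background).

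Transcription factors and cofactors of the class of 77 follow. FOXC1, a forkhead factor of mesoderm and neural crest, was at -2.81, -2.84, -3.08 and -3.20 in FOXP1 and 1.45, 2.09, 1.51 and 1.53 in GFP cells of IMR-32, and at 4.44, 3.76, 4.08 and 4.01 and 1.76, 1.51, 1.99 and 1.84 in CHP-212. GFP cells of the lines had like levels of FOXC1, and FOXP1 cells lay on either side of them. DACH1, a cofactor of eye and limb development, was at -1.54, -0.70, 0.29 and -0.13 and 1.84, 2.81, 2.99 and 2.74 in IMR-32, and in CHP-212 at -3.18, -2.66, -2.73 and -2.09 and -6.57, -6.53, -4.80 and -5.64, where 2 of 4 GFP arrays were well above background. TBX1, a T-box factor of the pharyngeal arches, was at -5.63, -4.83, -5.77 and -5.98 and -0.40, -0.25, -0.64 and -0.66 in IMR-32 and at 0.013, -1.36, -0.43 and -0.78 and -3.23, -3.66, -2.97 and -3.10 in CHP-212, on arrays all well above background. None of these groups overlapped within a line.

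DLX4, a homeobox factor, had mean ratios of -3.35 in IMR-32 and 2.51 in CHP-212, and NEUROG2, a proneural factor, -4.49 in IMR-32 and 2.21 in CHP-212. ZIC1, a zinc finger factor of the dorsal neural tube, had -3.3 in IMR-32 and 1.24 in CHP-212 (1 of 4 FOXP1 arrays of IMR-32 well above background). SNAI1, a repressor of epithelial cadherin, had -1.41 in IMR-32 and 1.57 in CHP-212. CXorf6 (now MAMLD1), a nuclear cofactor, had -4.68 in IMR-32 and 2.33 in CHP-212 (0 of 4 FOXP1 arrays of IMR-32, 2 of 4 FOXP1 arrays of CHP-212 and 2 of 4 GFP arrays of CHP-212 well above background), and GFP cells of IMR-32 had an at least 12-fold higher level.

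The rest included enzymes and a tubulin. ST8SIA1, the sialyltransferase that makes the ganglioside GD3, had mean ratios of -1.68 in IMR-32 and 1.40 in CHP-212 (2 of 4 GFP arrays of CHP-212 well above background), and ST6GAL2, another sialyltransferase, -2.14 in IMR-32 and 1.13 in CHP-212. ALDH1A3, which makes retinoic acid, had -1.80 in IMR-32 and 1.22 in CHP-212. DHRS2, a short-chain dehydrogenase, had -3.62 in IMR-32 and 1.24 in CHP-212, and TUBB2A, a beta-tubulin, -1.13 in IMR-32 and 1.77 in CHP-212. OCC-1, whose role is unclear, had -1.58 in IMR-32 and 1.21 in CHP-212. Among members without a symbol, UKv4_A_32_P941771 had ratios of -3.54, -4.22, -4.69 and -4.54 and 4.38, 4.14, 4.94 and 4.53, with 2 of 4 FOXP1 arrays of IMR-32 and 1 of 4 GFP arrays of CHP-212 well above background, and UKv4_A_32_P442998 of -3.27, -3.21, -3.70 and -3.40 and 2.95, 4.34, 2.52 and 2.66. Levels of the latter were not well above background in FOXP1 cells of IMR-32, which gives a bound of at least 6.59-fold, and in CHP-212 3 of 4 FOXP1 and 2 of 4 GFP arrays exceeded that limit.

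Promoter windows from RefSeq (GRCh38.p14, 300 bases around a start site) were found for 40 of the 44 genes whose symbol matched RefSeq, in 67 windows. They were searched on either strand for the forkhead core letters TGTTTAC, which reads GTAAACA on the opposite strand, and TATTTAC, which reads GTAAATA there. TGTTTAC was in 3.42% of all 35116 windows and TATTTAC in 2.67%, and 5.97% held at least 1 of them. Of the 67 windows of members, 3 held a match. Of the 40 genes, 2 held a match, VIPR1 and LDLRAD4, both of the class of 77, and LDLRAD4 did so in 2 of its windows. These windows are shown for the match (capitals), with those of HOOK1 and CXCL12, which hold none, so that each class is shown with a member described by its level on every array. A match is a description of the letters and not of binding. The windows lie at chr3:42489049-42489348 (plus strand), chr18:13338353-13338652 and chr18:13611214-13611513 (plus strand), chr1:59814699-59814998 (plus strand) and chr10:44385048-44385347 (minus strand).
VIPR1: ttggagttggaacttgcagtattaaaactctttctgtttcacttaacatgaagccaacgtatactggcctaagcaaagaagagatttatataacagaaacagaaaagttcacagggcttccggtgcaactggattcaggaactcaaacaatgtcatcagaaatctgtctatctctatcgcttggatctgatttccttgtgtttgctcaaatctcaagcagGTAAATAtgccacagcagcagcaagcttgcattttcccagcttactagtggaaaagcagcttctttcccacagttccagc
LDLRAD4 first window: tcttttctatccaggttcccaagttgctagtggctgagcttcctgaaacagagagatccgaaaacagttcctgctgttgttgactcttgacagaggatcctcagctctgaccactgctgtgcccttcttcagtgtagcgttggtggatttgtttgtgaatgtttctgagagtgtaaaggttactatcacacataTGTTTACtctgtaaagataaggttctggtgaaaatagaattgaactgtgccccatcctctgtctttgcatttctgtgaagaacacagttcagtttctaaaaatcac
LDLRAD4 second window: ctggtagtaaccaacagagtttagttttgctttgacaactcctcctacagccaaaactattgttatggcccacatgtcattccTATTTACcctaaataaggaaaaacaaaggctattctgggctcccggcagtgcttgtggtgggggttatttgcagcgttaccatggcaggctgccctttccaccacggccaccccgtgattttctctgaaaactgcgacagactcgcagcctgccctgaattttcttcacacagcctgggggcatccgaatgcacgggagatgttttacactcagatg
HOOK1: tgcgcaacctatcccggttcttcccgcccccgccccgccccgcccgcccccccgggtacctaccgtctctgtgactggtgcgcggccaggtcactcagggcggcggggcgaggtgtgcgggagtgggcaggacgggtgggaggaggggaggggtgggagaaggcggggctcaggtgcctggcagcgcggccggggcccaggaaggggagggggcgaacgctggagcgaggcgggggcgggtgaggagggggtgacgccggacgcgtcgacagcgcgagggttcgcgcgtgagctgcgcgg
CXCL12: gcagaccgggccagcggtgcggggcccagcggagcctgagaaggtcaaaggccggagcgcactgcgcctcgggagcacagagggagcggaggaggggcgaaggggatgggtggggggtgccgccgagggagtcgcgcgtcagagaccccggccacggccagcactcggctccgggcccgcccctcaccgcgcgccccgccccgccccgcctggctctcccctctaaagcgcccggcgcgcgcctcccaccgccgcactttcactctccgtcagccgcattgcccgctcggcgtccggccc

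The class medians of the log2 level can be set side by side for the 6 cultures. In the class of 34, the median level was -2.15 in FOXP1 and -4.59 in GFP cells of IMR-32, -4.26 and -2.12 in those of CHP-212. SK-N-BE(2) had medians of -3.56 and -3.61. In the class of 77 the medians of FOXP1 and GFP cells were -4.17 and -1.64 for IMR-32, -0.69 and -3.24 for CHP-212, and -3.44 and -3.08 for SK-N-BE(2). In GFP cells, 27 of the 34 had the lower level in IMR-32 and 56 of the 77 the lower level in CHP-212. In FOXP1 cells, 26 of the 34 had the higher level in IMR-32 and 64 of the 77 the higher level in CHP-212. The order of the lines turned between GFP and FOXP1 cells in 19 of 34 and 43 of 77 members. As the members were chosen on the same arrays, this order is a description.

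In SK-N-BE(2), 94 of the 111 members passed the limit on dim signals (4 or more arrays) and were tested with limma over 34044 probes. Of these, 4 were called higher on the arrays labelled FOXP1, where 0.426% of all probes tested were called higher, and 7 were called lower, where 0.285% were. Of the 94, 3 (ST6GAL2, AGTR1 and UKv4_A_32_P72351) met the limit through all 4 arrays of 1 culture and 0 of the other, so that they had to differ, and 2 of the 7 called lower were among them. These 3 were set aside after their values were seen. Of the other 91, 4 were called higher and 5 lower (4.4 and 5.49%), beside 0.377 and 0.262% of the 33984 probes left by the same step. A fit that took the time point as a block, which pairs the FOXP1 and GFP arrays of a slide, called 10 of the 94 members higher and 11 lower (272 and 205 of all probes), with these 3 included. Fewer were called from 12, 24 and 72 h alone, 0 and 2 (29 and 11 of all probes), and after normexp correction, 3 and 4 (88 and 58). The remaining 17 members were not tested, and 11 of the 111 exceeded background clearly on 0 of its 8 arrays.

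The members called in SK-N-BE(2) did not share the direction of a single other line. Of the class of 34, 27 were tested, 0 were called higher and 2 lower (limma, with 6 and 7 at an unadjusted p under 0.05), and lower is the direction of CHP-212. Over all 34044 probes, 3.66 and 4.01% were higher and lower at an unadjusted p under 0.05. By the t-test of the study's methods on these log2 levels, 3 of the 27 were called higher and 3 lower before adjustment. After adjustment it was 0 and 1. Of the class of 77, 67 were tested, and 64 remained with the 3 set aside. Of these, 4 were called higher, the direction of CHP-212, and 3 lower, the direction of IMR-32 (10 and 14 at an unadjusted p under 0.05). By the same t-test, 8 and 8 of all 67 were called before adjustment, and 2 and 1 after it. Of all 34044 probes, this t-test called 314 and 223 before adjustment and 72 and 49 after it. The median log2 difference was 0.24 over the 27 and -0.18 over the 64, against -0.01 over all probes tested. On the authors' normalized values, the median of the mean ratio was 0.073 in the class of 34 and -0.14 in that of 77, against -0.016 over the 31452 probes. All 4 ratios of a probe were at least 0.8 in 9 members (2 and 7) and at most -0.8 in 9 (2 and 7), against 154 and 117 of the 31452 probes (0.49 and 0.372%).

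IGFBP7 and CXCL12 were higher on the arrays labelled FOXP1 at all 4 time points, as in CHP-212. IGFBP7 was at 0.57, 0.49, 0.50 and 0.089 against -1.84, -1.34, -1.33 and -1.86 on the GFP arrays, with no overlap and all arrays well above background. The fitted difference was 2.01 (standard error 0.20, adjusted p = 0.0027, limma), with 2.12 on the slide of 0 and 12 h and 1.89 on that of 24 and 72 h. CXCL12 was at -1.15, -1.16, -1.63 and -1.29 against -3.16, -2.82, -3.08 and -3.52, again without overlap. Its difference was 1.84 (standard error 0.19, adjusted p = 0.00396, limma), with 1.84 on the slide of 0 and 12 h and 1.84 on that of 24 and 72 h. Without 0 h, in a comparison of 3 with 3 arrays, neither was called, with differences of 1.87 and 1.78 (adjusted p = 0.0742 and 0.108, limma).

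TPBG and ST6GAL2 were lower on the arrays labelled FOXP1 at all 4 time points, as in IMR-32. TPBG was at -5.18, -5.33, -5.19 and -5.64 against -4.30, -4.08, -4.08 and -3.66 on the GFP arrays, on which all arrays were well above background. The fitted difference was -1.31 (standard error 0.19, adjusted p = 0.0176, limma), with -1.07 on the slide of 0 and 12 h and -1.55 on that of 24 and 72 h. ST6GAL2 was at -8.14, -7.51, -7.50 and -8.94, with no array well above background, against -5.60, -5.21, -6.18 and -5.82 on GFP arrays that all were. GFP cells were at least 1.74-fold higher. In the fit with no filter on dim probes, where its own signal did not decide whether it was tested, the adjusted p was 0.044 (limma). Calls of ST6GAL2 in fits with the limit on dim signals are not counted, as it met that limit through the GFP arrays alone. After normexp correction the differences were -0.54 for TPBG and -0.47 for ST6GAL2, and neither was called.

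Of the members without a symbol, UKv4_A_24_P412156 was higher by 2.08 (standard error 0.34, adjusted p = 0.0316, limma) and UKv4_A_23_P255111 by 2.26 (standard error 0.35, adjusted p = 0.0267, limma). UKv4_A_24_P33508 was lower, with -1.39 (standard error 0.21, adjusted p = 0.021, limma), as was UKv4_A_32_P106615, with -1.93 (standard error 0.34, adjusted p = 0.0474, limma). These 4 belong to the class of 77, as does UKv4_A_32_P72351, for which GFP cells were at least 2.42-fold higher (adjusted p = 0.0061 with no filter on dim probes, limma). From the class of 34, UKv4_A_32_P60561 had a difference of -2.62 (standard error 0.25, adjusted p = 0.0027, limma), with 3 of 4 arrays labelled FOXP1 well above background, and UKv4_A_23_P406131 of -1.94 (standard error 0.27, adjusted p = 0.0163, limma), with 2 of 4. The 6 others than UKv4_A_32_P72351 kept their direction at 4 of 4 time points and on each slide, but none kept its call under every alternative. UKv4_A_24_P412156 was called under 6 of 19 alternatives, UKv4_A_23_P255111 under 10 of 19, UKv4_A_24_P33508 under 13 of 19 and UKv4_A_32_P106615 under 9 of 19. UKv4_A_32_P60561 was called under 17 of 18 and UKv4_A_23_P406131 under 12 of 18. After normexp correction the difference was 1.06 for UKv4_A_24_P412156, -0.44 for UKv4_A_32_P72351, -0.96 for UKv4_A_32_P60561 and -0.53 for UKv4_A_23_P406131, and none of these 4 was called.

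Other named members were not called in the unpaired fit, although the study's list of regulated genes for SK-N-BE(2) holds JAG1, AGTR1 and RET. The fitted log2 difference of SLIT2 was -1.88 (standard error 0.36, adjusted p = 0.0642, limma). JAG1 had 1.19 (standard error 0.39, adjusted p = 0.389, limma) and RET 0.96 (standard error 0.25, adjusted p = 0.213, limma). AGTR1 was well above background on the 4 arrays labelled FOXP1 and on no GFP array, which gives a bound of at least 1.73-fold (adjusted p = 0.0928 with no filter on dim probes, limma). DACH1 had 0.86 (standard error 0.24, adjusted p = 0.241, limma) and DKK1 0.69 (standard error 0.24, adjusted p = 0.431, limma). FOXC1, with 0.00 (standard error 0.28, adjusted p = 0.999, limma), and TBX1, with -0.67 (standard error 0.34, adjusted p = 0.741, limma), were not called either. With the time point as a block, SLIT2 (adjusted p = 0.00998, limma) and JAG1 (adjusted p = 0.0353, limma) were called. Over the alternatives SLIT2 was called under 8 of 19 and JAG1 under 2 of 19. AGTR1 met the limit on dim signals through the arrays labelled FOXP1 alone and had to differ there. Its calls in fits with that limit are therefore not counted. RET, DACH1, DKK1, FOXC1 and TBX1 were called under 0. SP5, NEUROG2, ZIC1, CXorf6, C10orf30, PARP8 and VSNL1 exceeded background clearly on 0 of 8 arrays of SK-N-BE(2).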

How the data were processed

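RNA of 3 cell lines was hybridised to 24 one-colour arrays. The authors deposited processed signal intensities, which per the file headers are background-subtracted and detrended within the array and were not scaled between arrays. The authors also deposited outlier and background flags, and a table of intensities on a linear scale whose columns hold the same sorted values to within 0.088% and keep the rank order of the processed signal (Spearman's rho 1 on each array). That table was read as quantile-normalized, and its normalization is not stated in words. The labels name limma as a processing tool.

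Ratios that chose the members came from the log2 of the authors' normalized table. Levels and tests used the log2 processed signal minus the 75th percentile of the array, without control spots and 311 outlier spots. In each line, limma 3.58.1 in R 4.3.3 set FOXP1 against GFP arrays over probes that passed the limit on dim signals, two-sided, with Benjamini-Hochberg adjustment over all probes tested. The fit was tested on simulated data. Where no array of a culture was well above background, the fold is a lower bound, the mean level of the brighter culture against, per array, the higher of the lowest signal well above background and the probe's own. Signal over background stood for depth, and the number of arrays limits the precision. Python 3.11.15 with numpy 2.4.6 and pandas 2.3.3 made the tables.

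At each time point the FOXP1 and the GFP array lie on 1 slide. Their deviations from the group means correlated by 0.370, 0.670, 0.584 and 0.435 in SK-N-BE(2), so that the time points pair the arrays. The comparison was kept unpaired as in the study's methods. The slide of 0 and 12 h and that of 24 and 72 h were each taken alone as well.

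Symbols came from the study's list of regulated genes, of which 1997 entries for IMR-32, 1489 for CHP-212 and 642 for SK-N-BE(2) were used here. Of 45 symbols, 44 matched RefSeq (GRCh38.p14) and 4 had a newer name. No other named probe carried the symbol of a member (0 probes), and nothing can be said of probes without a symbol. The members and gene lists were chosen with earlier results of these data known. Genes named were FOXP1, in each class the 8 members with a symbol and 2 without with the largest smallest ratio, the members called in SK-N-BE(2), and the 2 probes nearest to the limit on each side. The marker lists held adrenergic, mesenchymal and Schwann-like genes and 8 genes that the study named, HOXC9 and genes of neuronal differentiation. Alternatives were other values, limits, filters, normalizations and blocks, the methods' t-test, later time points alone and leaving out arrays. The normexp correction (offset 50) used the median spot intensity.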

Additional observations from a re-analysis of the deposited data

Results flagged for a closer look

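The opposite ratios of the 111 members were picked out because all 4 ratios pointed one way in IMR-32 and all 4 the other way in CHP-212. This is how the members were chosen, and the difference between the lines was not tested.

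Among the named members, 22 of 354 groups of 4 arrays held an array far from the other 3, as a gap beyond a critical value for 4 values, which chance gives in about 1 in 20 groups. All values are log2 levels relative to the 75th percentile. In IMR-32, CNIH3 was at -7.18 on the FOXP1 array of 24 h and between -5.20 and -5.02 on the other arrays of the group. UKv4_A_23_P255111 was at -2.36 on the GFP array of 72 h and between -3.80 and -3.57 on the other arrays of the group. SLIT2 was at 1.37 on the GFP array of 0 h and between 1.71 and 1.77 on the other arrays of the group. FOXC1 was at 2.09 on the GFP array of 12 h and between 1.45 and 1.53 on the other arrays of the group. IGFBP7 was at -8.29 on the FOXP1 array of 24 h and between -9.13 and -9.04 on the other arrays of the group. ZIC1 was at -4.97 on the GFP array of 0 h and between -4.10 and -4.01 on the other arrays of the group. UKv4_A_24_P64241 was at -3.07 on the GFP array of 12 h and between -2.20 and -2.06 on the other arrays of the group. VIPR1 was at -7.92 on the FOXP1 array of 24 h and between -6.76 and -6.59 on the other arrays of the group. The distant values of CNIH3, IGFBP7 and VIPR1 in FOXP1 cells were not well above background.

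In CHP-212, C18orf1 was at -5.81 on the GFP array of 0 h and between -4.40 and -4.16 on the other arrays of the group. TPBG was at 1.73 on the FOXP1 array of 12 h and between 1.97 and 2.01 on the other arrays of the group. SPON2 was at 1.69 on the GFP array of 24 h and between 1.29 and 1.35 on the other arrays of the group. JAG1 was at -2.57 on the GFP array of 24 h and between -3.17 and -3.09 on the other arrays of the group. The distant value of C18orf1 was not well above background.

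In SK-N-BE(2), UKv4_A_32_P109203 was at -4.58 on the GFP array of 12 h and between -1.96 and -1.76 on the other arrays of the group. GPC6 was at 2.28 on the FOXP1 array of 12 h and between 1.86 and 1.90 on the other arrays of the group. SPON2 was at -3.09 on the FOXP1 array of 72 h and between -4.02 and -3.95 on the other arrays of the group. SPON2 was at -2.61 on the GFP array of 72 h and between -3.44 and -3.32 on the other arrays of the group. SSTR2 was at -1.15 on the FOXP1 array of 24 h and between -1.76 and -1.67 on the other arrays of the group. IGFBP7 was at 0.089 on the FOXP1 array of 72 h and between 0.49 and 0.57 on the other arrays of the group. ALDH1A3 was at -2.57 on the FOXP1 array of 72 h and between -3.74 and -3.61 on the other arrays of the group. ALDH1A3 was at -3.07 on the GFP array of 72 h and between -4.36 and -4.24 on the other arrays of the group. UKv4_A_24_P64241 was at -3.28 on the FOXP1 array of 12 h and between -2.60 and -2.55 on the other arrays of the group. VIPR1 was at -3.74 on the FOXP1 array of 24 h and between -8.62 and -8.38 on the other arrays of the group. For VIPR1 the array of 24 h was the only one of its group well above background. SPON2 and ALDH1A3 had their distant array at 72 h in both cultures of this line. For UKv4_A_32_P109203 the array labelled FOXP1 of 12 h was also the lowest of its group, at -4.22, without passing the critical value.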

How the results depend on the processing

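By 75th percentile scaling in place of the authors' normalized values the classes held 32 and 79 members, 28 and 74 of them shared with the 34 and 77. Smaller counts came after normexp correction with quantile normalization (11 and 41), at a limit of 1.0 (18 in the first class) and with all 8 arrays of each line well above background (9 and 34). Larger counts came at a limit of 0.6 (73 and 131) and from the slide of 0 and 12 h alone (130 and 153) or that of 24 and 72 h alone (79 and 134), where fewer ratios had to pass. With each time point left out in turn, the first class held 43 to 55, with 55 without 0 h and 54 without 72 h, and the second stayed within 1.5 times its count.

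Members called higher and lower in SK-N-BE(2) were 4 and 7 in the main fit (145 and 97 of all probes, given in brackets from here). They were 3 and 4 (88 and 58) after normexp correction and 2 and 6 (108 and 65) with no filter on dim probes. With all 8 arrays well above background they were 4 and 4 (120 and 75). With the time point as a replicate block they were 10 and 11 (272 and 205), and with the slide as a block 7 and 10 (185 and 126). All 24 arrays in 1 fit gave 7 and 11 (191 and 119). The methods' t-test gave 11 and 11 (314 and 223) before adjustment and 2 and 2 (72 and 49) after it. From 12, 24 and 72 h alone, a comparison of 3 with 3 arrays, 0 and 2 (29 and 11) were called. Leaving out each array in turn gave 2 to 3 higher and 2 to 7 lower (79 to 140 and 48 to 96). Without the GFP array of 0, 12, 24 or 72 h, 2, 3, 3 and 2 were called higher and 4, 2, 3 and 5 lower, and without the array labelled FOXP1 of these times 2, 2, 3 and 3 higher and 2, 4, 6 and 7 lower. The cause of the other changes was not tested. The 2 settings quantile-normalized without normexp correction each gave 6 and 8 (138 and 107 in 1 setting, 139 and 111 in the other). Without members that met the limit on dim signals through 1 culture alone, an alternative chosen after seeing the data, 4 and 5 (128 and 89) were called. The other settings, save that of all 8 arrays, set no such member aside.

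Over 19 alternatives and 48 named members tested, no called difference changed sign. Sign changes of differences that were not called numbered 19, in 7 members. IGFBP7 and CXCL12 kept their call under 18 of 19 alternatives and TPBG under 11 of 19. Signal over background limits the ratios at which neither array was well above background, which were 13 and 11 of 111 in CHP-212 at 0 and 12 h and 16, 17, 14 and 14 in SK-N-BE(2) at the 4 time points.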
